A study of Homo sapiens with 16 samples.

Results

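H3K4me3 and H3K27me3 were set against each other at the start sites of protein-coding genes in MCF-10A cells exposed to octanoic acid (OA). MCF-10A is a nontransformed human breast epithelial line, OA is a medium-chain fatty acid, and cells received 5 mM OA or PBS vehicle for 24 hours. The marks were mapped by CUT&RUN, in which an antibody directs a nuclease to cut and release the chromatin around a histone mark. The comparison used the 3 OA libraries of each mark, 6 of the 16 libraries of the series, with 3 vehicle libraries of each mark, 2 H3K4me3 libraries of untreated cells and 2 IgG libraries of untreated cells beside them. All libraries came from this single line, the labels name biological replicates, and no H3K27me3 library of untreated cells entered the comparison. Overlapping peaks of the libraries of a group were merged, and a region was kept when at least 2 of the 3 libraries held a peak in it. A gene was assigned to a class by the regions within 3 kb of any start of its protein-coding transcripts in GENCODE release 44 on hg38, which gave 20033 genes.

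In OA cells 12760 genes (63.7%) carried H3K4me3 only, 776 (3.87%) H3K27me3 only, 308 (1.54%) both marks and 6189 (30.9%) neither. The 308 genes with both marks included NRG2, ATF3, EFNA3, CHRM3, the netrin receptors UNC5A, UNC5B and UNC5C, and the chromobox genes CBX2, CBX7 and CBX8 of Polycomb repressive complex 1. In vehicle cells, by the same rule, 11917 genes carried H3K4me3 only, 1426 H3K27me3 only, 306 (1.53%) both and 6384 neither. The classes list what the rule found and were not tested against chance. Some genes share a place, since 16 pairs of genes with both marks had the same H3K4me3 and H3K27me3 regions, among them PSMA1 with PDE3B, PLAG1 with CHCHD7 and FOXL2 with FOXL2NB.

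H3K4me3 is laid down by the SET1 and MLL complexes at CpG-rich promoters and marks start sites that are active or can be activated. H3K27me3 is laid down by Polycomb repressive complex 2 (PRC2), is bound by the chromobox (CBX) proteins of Polycomb repressive complex 1 and marks silenced developmental genes. Promoters that hold both marks are called bivalent and were first described at developmental regulators in embryonic stem cells. CUT&RUN on many cells does not tell whether both marks lie on the same nucleosome, on the 2 alleles of a cell or in different cells.

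**Figure D1:**
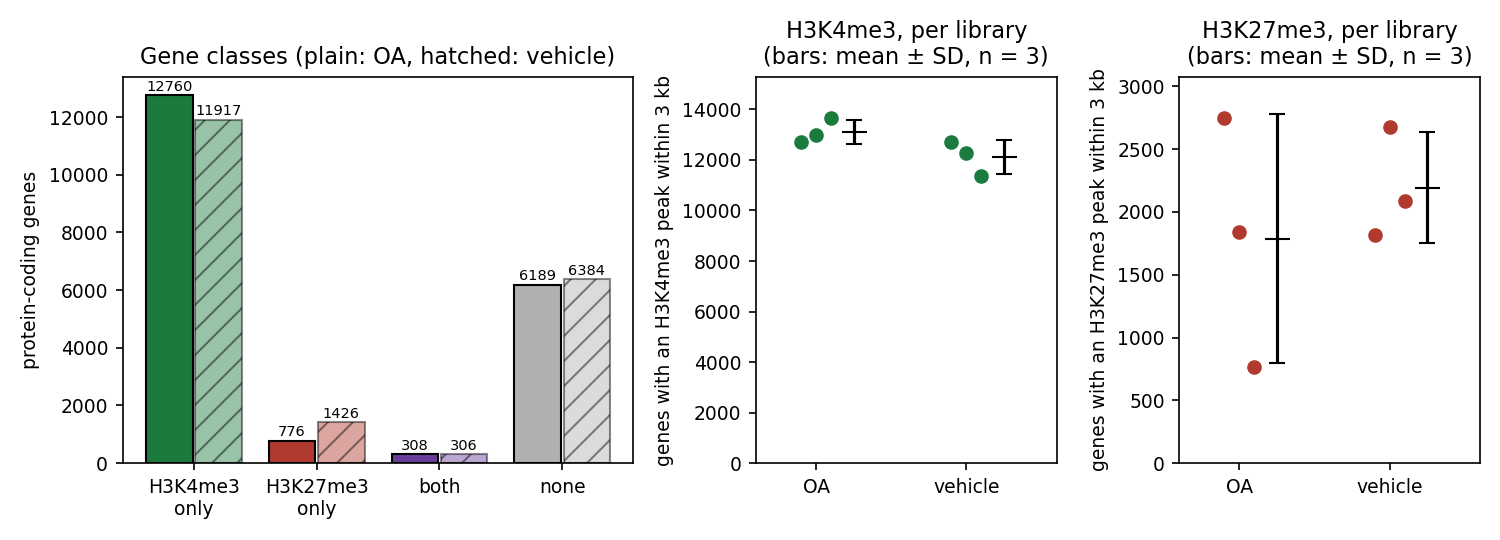
Left, number of protein-coding genes (y axis) in each class in OA (plain bars) and vehicle (hatched bars); middle and right, genes with an H3K4me3 or H3K27me3 peak within 3 kb in each library (points), with the mean and SD of 3 libraries beside them. The 3 H3K4me3 OA libraries all lie above the 3 vehicle libraries, and the H3K27me3 OA libraries range from 767 to 2745 genes, below and above the vehicle libraries.

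Stretches of 250 bases just before the canonical start are shown for 5 promoters, to place the classes on sequence: 3 genes with both marks and 1 strongly marked gene of each single-mark class, all with no annotated exon in the stretch. They were read from the hg38 reference on the coding strand, 5′ to 3′, with each CpG in capitals. NRG2 (chr5:140043300-140043549, minus strand) and CACNB2 (chr10:18140174-18140423, plus strand) lie inside an H3K4me3 and an H3K27me3 region at once. The EFNA3 stretch (chr1:155078587-155078836, plus strand) lies partly under H3K4me3, and the H3K27me3 region starts 53 bases past the start. SF3B4 (chr1:149927804-149928053, minus strand), a splicing factor gene, lies under H3K4me3 alone. LRRC71 (chr1:156920382-156920631, plus strand), which encodes a leucine-rich repeat protein, has its H3K27me3 region 1300 bases past the start, in an intron, so that its stretch is under neither mark.
NRG2: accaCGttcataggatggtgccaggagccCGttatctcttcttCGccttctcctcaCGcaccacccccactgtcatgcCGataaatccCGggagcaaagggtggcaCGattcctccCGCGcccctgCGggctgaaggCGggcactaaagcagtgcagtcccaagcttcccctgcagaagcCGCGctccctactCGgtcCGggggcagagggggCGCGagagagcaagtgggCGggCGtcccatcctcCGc
CACNB2: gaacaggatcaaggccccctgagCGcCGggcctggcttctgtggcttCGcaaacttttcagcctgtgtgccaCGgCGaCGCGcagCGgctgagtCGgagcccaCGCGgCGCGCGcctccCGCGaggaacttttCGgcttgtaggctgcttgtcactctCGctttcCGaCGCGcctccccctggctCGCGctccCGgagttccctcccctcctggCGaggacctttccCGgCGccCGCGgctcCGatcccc
EFNA3: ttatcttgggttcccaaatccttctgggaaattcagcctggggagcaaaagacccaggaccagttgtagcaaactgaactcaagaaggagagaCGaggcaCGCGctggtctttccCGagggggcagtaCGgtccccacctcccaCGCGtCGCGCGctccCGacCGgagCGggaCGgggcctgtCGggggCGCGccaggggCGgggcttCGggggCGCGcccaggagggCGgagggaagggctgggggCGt
SF3B4: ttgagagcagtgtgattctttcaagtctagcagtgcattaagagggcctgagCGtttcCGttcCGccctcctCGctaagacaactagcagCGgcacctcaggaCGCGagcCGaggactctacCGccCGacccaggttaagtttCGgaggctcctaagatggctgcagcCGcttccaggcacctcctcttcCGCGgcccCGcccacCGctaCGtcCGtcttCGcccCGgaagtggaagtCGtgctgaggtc
LRRC71: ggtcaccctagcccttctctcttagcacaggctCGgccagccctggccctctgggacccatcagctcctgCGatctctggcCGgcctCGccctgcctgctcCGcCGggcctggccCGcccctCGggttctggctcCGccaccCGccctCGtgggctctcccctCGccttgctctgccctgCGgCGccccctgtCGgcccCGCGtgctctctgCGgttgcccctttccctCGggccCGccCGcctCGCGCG
The 5 stretches held 20, 30, 23, 21 and 24 CpG in this order. Over all genes of a class the median was 23 CpG in these 250 bases for genes with both marks, 22 for H3K4me3-only genes, 9 for H3K27me3-only genes and 5 for genes with neither, and 18 over all genes.

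The H3K27me3 libraries limit how firmly a gene can be placed. The third OA replicate held 9091 peaks and reached 767 genes, where the first and the second held 32363 and 25540 peaks and reached 2745 and 1843 genes. Of the 308 genes with both marks, 293, 271 and 145 had an H3K27me3 peak in the 3 OA libraries, and only these entered the medians. Their strongest H3K27me3 peak had a median fold enrichment over background of 3.25, 3.39 and 3.64 and a median −log10 q of 1.64, 1.68 and 1.45. Only 4, 2 and 0 of these genes had an H3K27me3 peak at a q-value of 1e-05 or less. When 1 H3K27me3 OA library was left out and both remaining ones had to agree, the class held 101 genes without replicate 1, 114 without replicate 2 and 253 without replicate 3. The H3K4me3 side was firmer, with 242 to 281 genes when 1 H3K4me3 OA library was left out. The IgG libraries had a peak at 3 and 2 of the 308 genes. Read depth was unknown, since the files hold peaks and no read counts.

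The cell type labels were checked against marker genes, beside 63.7% of all genes with H3K4me3 only and 30.9% with neither mark. H3K4me3 stood alone at 10 of 12 basal mammary markers, among them KRT5, TP63, LAMB3 and EGFR, and KRT14 and KRT15 had neither mark. It stood alone at 7 of 12 luminal markers (58.3%), a share near that of all genes, while ESR1, PGR and TFF1 had neither mark. Of 16 fibroblast, endothelial and immune markers 12 had neither mark, including PECAM1, PTPRC, LUM and DCN, 3 had H3K4me3 only (COL1A1, CD14 and CD68) and CD3E had H3K27me3 only.

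At most genes with both marks the regions did not share bases. Within 3 kb of the same start both marks were found for 227 of the 308 genes (73.7%). The nearest regions shared at least 1 base at 72 genes (23.4%), with a median of 419 shared bases, and at least 50% of the shorter region at 41 (13.3%). At the other 236 genes the regions were apart, at a median distance of 2128.5 bases and with quartiles of 1061 and 14390 bases, the long distances being those between alternative starts of a gene, as at FGF14 and ZNF423. All 6 OA libraries had a peak at 82 genes, of which 16 had overlapping regions.

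At most genes with both marks H3K4me3 lay over the canonical start and H3K27me3 did not. The canonical start was inside an H3K4me3 region at 208 of the 308 genes (67.5%), against 88.6% of H3K4me3-only genes. It was inside an H3K27me3 region at 29 (9.42%), against 21.8% of H3K27me3-only genes, and inside both at 17. Genes were classed by any start but read here at 1 canonical start. Genes with both marks had a median of 4 starts and H3K27me3-only genes 2, and the part of this in the lower share was not tested. Along the genes with both marks, the share under an H3K27me3 region was 15.6% at 2400 bases upstream, 9.42% at the start and 20.8% at 1200 bases downstream. H3K27me3-only genes had no such dip, with 21.8% at the start and a highest share of 23.1% at 800 bases downstream. The vehicle libraries, which did not enter the classes, were read in the same way. Among genes with an H3K27me3 peak within 3 kb, the peak covered the start at 12.2%, 9.81% and 8.40% of genes with both marks and at 19.8%, 19.1% and 18.1% of H3K27me3-only genes in the 3 vehicle libraries. The order was the same in all 3, and this position was chosen after the profile had been seen, so that no test was made.

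**Figure D2:**
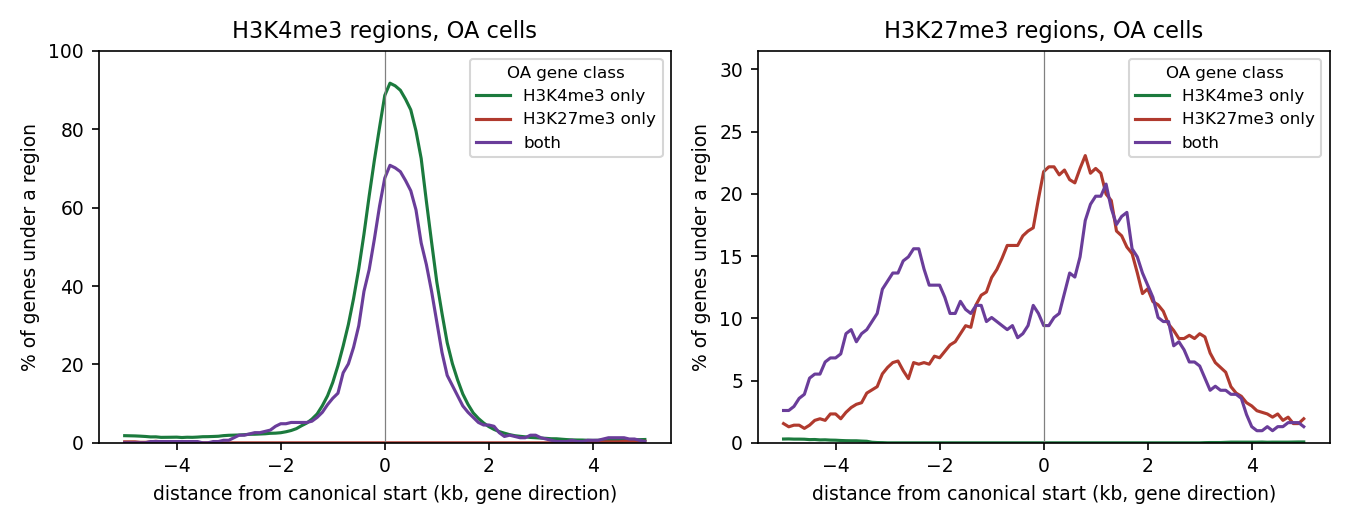
Share of genes (y axis, percent) whose sequence at each distance from the canonical start (x axis, kb, negative upstream) lay under an H3K4me3 region (left) or an H3K27me3 region (right) of OA cells, by OA gene class. H3K4me3 peaks just past the start in both classes that carry it, while H3K27me3 at genes with both marks is at 9.42% at the start, between 2 higher flanks, and reaches 20.8% at 1200 bases downstream. The line of H3K4me3-only genes on the right and of H3K27me3-only genes on the left is at 0 near the start because the classes were made that way.

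In each library an H3K27me3 peak was found at a smaller share of the genes with H3K4me3 than of the genes without it, a difference that the design could not bring past 0.05. In the OA libraries an H3K27me3 peak was found at 7.997%, 3.96% and 1.58% of genes with H3K4me3 and at 24.4%, 19.0% and 8.04% of genes without it. The difference averaged -12.6 percentage points ± 5.40 (SD, n = 3) and was negative in 3 of 3 libraries (two-sided exact sign-flip test, p = 0.25, the smallest p that 3 libraries allow, adjusted p = 0.5 over the 8 tests made). The vehicle libraries gave 3.02%, 4.22% and 3.18% against 18.5%, 27.7% and 21.7%, again lower in 3 of 3. The share at H3K4me3 genes differed between OA and vehicle by 1.04 percentage points, with OA values both above and below the vehicle values (exact permutation test, p = 0.8, adjusted p = 0.8), and by -0.70 points without OA H3K27me3 replicate 1. That library also had a peak at 5.89% of H3K4me3-only genes, against 1.93% and 0.486% in the other OA libraries.

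The number of genes reached by each mark was compared between OA and vehicle, library by library. H3K4me3 peaks lay within 3 kb of 12716, 12970 and 13651 genes in OA and of 12692, 12290 and 11359 genes in vehicle, so that the groups did not overlap. The means were 13112 ± 483 and 12114 ± 684 (SD, n = 3 each), a difference of 999 genes (exact permutation test, p = 0.1, the smallest that 3 against 3 allow, adjusted p = 0.267). H3K27me3 peaks lay within 3 kb of 2745, 1843 and 767 genes in OA and of 1816, 2676 and 2086 in vehicle. Here the means were 1785 ± 990 and 2193 ± 440, a difference of -408 genes that was smaller than the spread of the OA libraries (exact permutation test, p = 0.7, adjusted p = 0.8) and that was 101 in the other direction without OA replicate 3. Within OA and within vehicle the H3K27me3 libraries with more peaks reached more genes. With the same number of peaks kept in each library of a mark, the H3K27me3 difference was -34.3 genes (exact permutation test, p = 0.8) and the H3K4me3 difference 771 genes (exact permutation test, p = 0.1).

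H3K4me3 peaks had lower median width and strength at genes with both marks than at H3K4me3-only genes in 5 of 5 libraries, without passing 0.05 after adjustment. The comparison used the 5 H3K4me3 libraries of vehicle and untreated cells, which had no part in making the OA classes. Only genes with a peak in a library entered its median. These were 221, 194 and 146 of the 308 genes with both marks in vehicle and 119 and 104 in untreated cells. Of the 12760 H3K4me3-only genes 12280, 12029, 11127, 10326 and 9524 entered in the same libraries. The median width of the widest peak per gene was 969, 1053.5 and 640 bp in vehicle and 543 and 512.5 bp in untreated cells at genes with both marks, and 1286, 1337, 861, 712 and 619 bp at H3K4me3-only genes in the same libraries. Peaks were narrower by 219 bp on average, with an SD of 85.0 bp between libraries, and narrower in 5 of 5 libraries (two-sided exact sign-flip test, p = 0.0625, the smallest that 5 libraries allow, adjusted p = 0.25). Strength was given as the percentile of a peak's −log10 p among all peaks of its library. The medians were 52.4, 43.1, 50.04, 48.2 and 44.9 at genes with both marks and 72.7, 68.2, 68.6, 60.0 and 56.6 at H3K4me3-only genes, a mean difference of -17.5 percentile points ± 5.75 (SD, n = 5), again lower in 5 of 5 (exact sign-flip test, p = 0.0625, adjusted p = 0.25). The adjusted values do not pass 0.05, which these numbers of libraries could not reach in any case.

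For H3K27me3 the libraries did not all point one way between genes with both marks and H3K27me3-only genes. Again only genes with a peak entered, 221, 265 and 238 of the 308 genes with both marks and 541, 665 and 620 of the 776 H3K27me3-only genes. In the 3 vehicle libraries the median width was 723, 999 and 763 bp at genes with both marks and 725, 851 and 718 bp at H3K27me3-only genes (mean difference 63.7 bp ± 76.7, exact sign-flip test, p = 0.5, adjusted p = 0.667). Median strength was at percentile 76.8, 72.4 and 74.4 against 68.2, 73.4 and 69.3 (mean difference 4.22 ± 4.86, exact sign-flip test, p = 0.5, adjusted p = 0.667). In 1 of 3 libraries the sign was opposite for each measure.

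**Figure D3:**
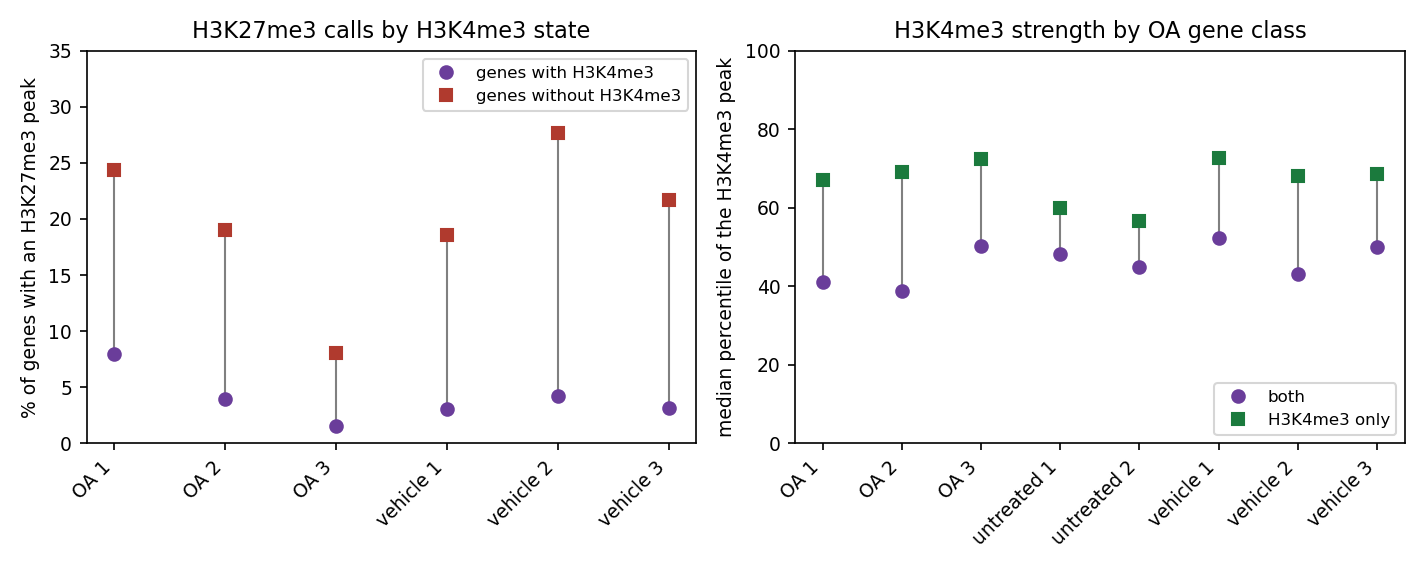
Left, share of genes with an H3K27me3 peak (y axis, percent) among genes with (circles) and without (squares) H3K4me3 in each H3K27me3 library; right, median percentile of the H3K4me3 peak (y axis, 0 to 100 within a library) at genes of the OA classes both (circles) and H3K4me3 only (squares) in each H3K4me3 library. Circles lie below squares in every library of both panels. The classes were made from the OA libraries, so the 5 vehicle and untreated libraries on the right are those that were tested.

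Of the 308 genes with both marks in OA, 145 had both in vehicle, 95 had H3K27me3 only, 46 H3K4me3 only and 22 neither. In the other direction, 160 of the 306 vehicle genes with both marks (52.3%) had H3K4me3 only in OA, and 1 had H3K27me3 only. Of the 1426 vehicle genes with H3K27me3 only, 9.89% had H3K4me3 only in OA and 41.4% had neither mark. H3K27me3 regions numbered 9563 in OA and 18917 in vehicle, and the part of this difference in the 160 was not tested. At the 95 genes that added H3K4me3, 64 had no H3K4me3 peak in any vehicle library and 31 had 1 library with a peak. At the 160 genes that lost the H3K27me3 region, 47 had no H3K27me3 peak in any OA library, 74 had 1 library with a peak, 35 had 2 and 4 had 3, peaks in 2 libraries that did not meet in 1 region near the start included. At the 46 genes that gained an H3K27me3 region, 13 had no H3K27me3 peak in vehicle and 25 had 1 library with a peak. OA and vehicle were compared here by class alone, with no test of single genes.

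Of the 72 genes with overlapping regions in OA, 42 had H3K27me3 only in vehicle, 24 both, 3 H3K4me3 only and 3 neither. In the 3 vehicle H3K27me3 libraries 88.9%, 91.7% and 90.3% of the 72 genes had a peak, against 66.5%, 84.3% and 73.3% of the 236 genes with regions apart. In the vehicle H3K4me3 libraries it was 51.4%, 37.5% and 26.4% of the 72 genes against 78.0%, 70.8% and 53.8% of the 236. Untreated cells had an H3K4me3 peak at 19.4% and 9.72% of the 72 genes, against 44.5% and 41.1% of the 236 and 80.9% and 74.6% of H3K4me3-only genes. Vehicle cells held 37 genes with overlapping regions, 8 of them shared with the 72.

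The strongest overlapping pairs were taken by the lowest percentile over the 6 OA libraries, and these 12 genes are a description of that choice. By that choice each had a peak of both marks within 3 kb in all 6 OA libraries, though not always in the overlapping regions themselves. The values below are the fold enrichment of the strongest peak that met the named region. None of the 12 had an IgG peak, and 10 of them are described.

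Genes for ligands and receptors come first. NRG2 (ENSG00000158458), a neuregulin that binds ERBB receptors, carried H3K4me3 at chr5:140041837-140043662 and H3K27me3 at chr5:140043215-140043687, with 448 bases shared across the start. Its H3K4me3 fold was 7.72, 12.3 and 9.74 in the OA libraries and 6.65, 9.55 and 5.35 in vehicle, and neither untreated library had a peak there. The folds of the 2 groups overlapped. The OA peaks were 1551, 1759 and 1826 bp wide and the vehicle peaks 937, 457 and 184 bp, for a gene chosen by its OA values. Over all H3K4me3 peaks of these libraries the median width was 736, 972 and 964 bp in OA and 824, 1028 and 559 bp in vehicle. Its H3K27me3 fold was 3.34 and 4.22 in the first 2 OA libraries and 3.27 in the first vehicle library, and the other 3 libraries had no peak in that region but had one within 3 kb of a start. EFNA3 (ENSG00000143590), a ligand of Eph receptors, shared 1007 bases between H3K4me3 at chr1:155078699-155079896 and H3K27me3 at chr1:155078890-155080768. Its H3K4me3 fold was 4.76, 7.45 and 8.63 in OA and 5.97 and 6.59 in vehicle replicates 1 and 2, with no peak in vehicle replicate 3. All 6 H3K27me3 libraries had a peak at EFNA3, at 2.90, 3.73 and 3.90 in OA and 3.52, 4.50 and 3.81 in vehicle, and the groups overlapped.

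CHRM3 (ENSG00000133019), a muscarinic acetylcholine receptor, had both regions over its start, H3K4me3 at chr1:239386089-239387894 and H3K27me3 at chr1:239386467-239388272, with 1428 shared bases. H3K4me3 was at 6.02, 7.35 and 9.29 in OA and at 5.97 and 7.33 in vehicle replicates 1 and 2. H3K27me3 was at 3.17, 3.17 and 3.35 in vehicle, and in OA it had peaks of 2.90 and 3.11 in the first 2 libraries.

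Genes of channels and the synapse came next. CACNB2 (ENSG00000165995), an auxiliary subunit of voltage-gated calcium channels, had both regions over the start of its canonical transcript, H3K4me3 at chr10:18140143-18141639 and H3K27me3 at chr10:18140142-18140672. Its H3K4me3 fold was 10.2, 10.4 and 11.8 in OA and 10.7, 5.63 and 5.46 in vehicle. Its H3K27me3 region was called at 3.39 and 3.76 in the first and the third OA library, and at 3.44 in 1 vehicle library, the second. RIMS2, a presynaptic active zone gene, shared its regions with the overlapping gene ENSG00000285982 on the opposite strand, so that both entries describe 1 place. There the H3K4me3 fold was 5.65, 6.16 and 5.01 in OA with no vehicle peak, and H3K27me3 was at 2.87, 2.79 and 3.23 in OA and 3.52, 3.12 and 2.88 in vehicle.

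Transcription factors and other genes followed. ATF3 (ENSG00000162772), a stress-induced transcription factor of the integrated stress response, had H3K4me3 over its start at chr1:212607026-212610025 and H3K27me3 upstream at chr1:212604241-212607386, with 361 bases shared. H3K4me3 was at 5.57, 7.64 and 5.58 in OA and 7.45, 9.63 and 8.86 in vehicle. H3K27me3 fold was 2.70, 2.52 and 3.04 in OA and 2.25, 2.23 and 2.34 in vehicle. The percentiles of the same peaks overlapped, at 97.9, 91.7 and 93.1 in OA and 91.3, 96.1 and 96.0 in vehicle. ATF3 was chosen by its OA values, so neither measure was tested between the groups. NPAS1, a neuronal transcription factor, had its 2 regions past the start, with H3K4me3 at 4.63, 6.38 and 8.92 in OA and none in vehicle. AGAP2, an Arf GTPase-activating protein gene, and GPR137B, a lysosomal membrane protein gene, had 424 and 193 shared bases.

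**Figure D4:**
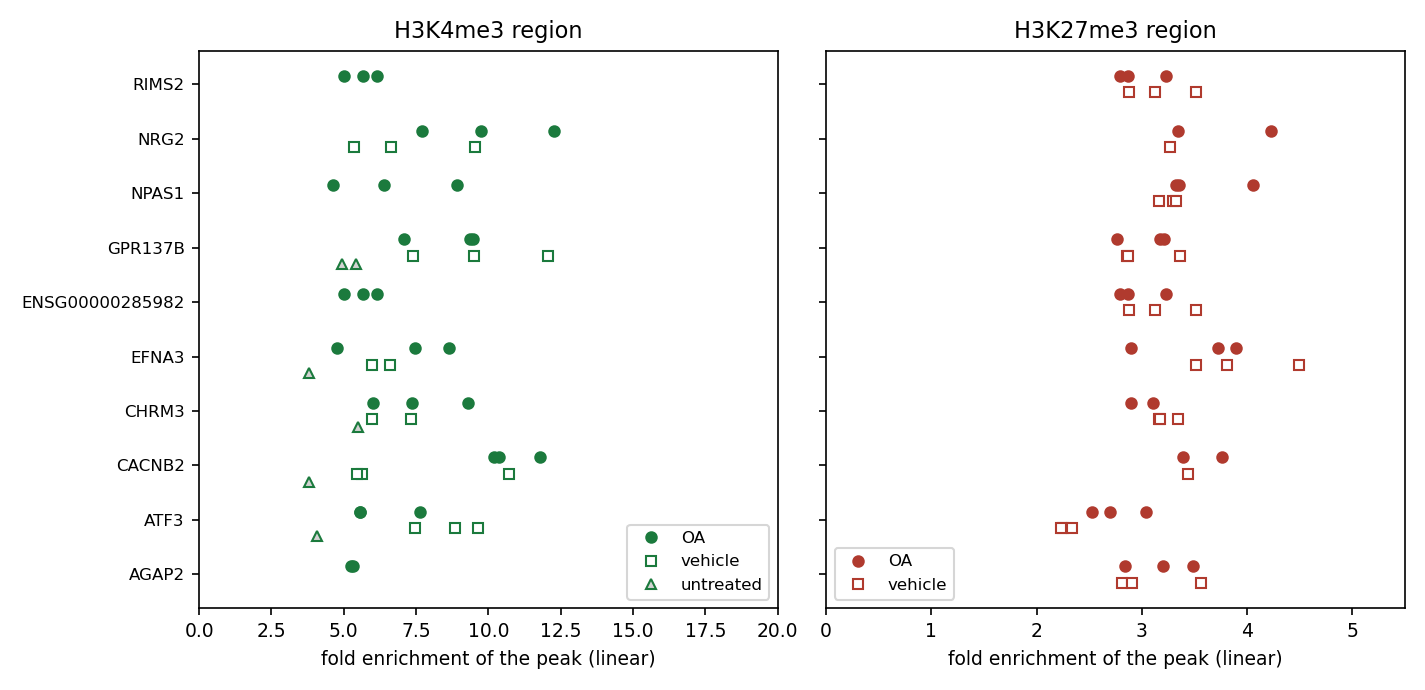
Fold enrichment (x axis, linear) of the strongest peak that met the H3K4me3 region (left) and the H3K27me3 region (right) of the 10 genes described (y axis), by library, for OA (filled circles), vehicle (open squares) and untreated (triangles, H3K4me3 only) libraries. A missing point is a library with no peak in that region. H3K27me3 folds lie between 2.23 and 4.50, and H3K4me3 folds reach 12.3. The H3K4me3 peaks were called as narrow and the H3K27me3 peaks as broad, at unlike thresholds, so the folds of the marks are not set against each other.

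The 3 netrin receptor genes had both marks without shared bases. UNC5B (ENSG00000107731) had H3K4me3 just past its start at chr10:71212596-71214203 and H3K27me3 at chr10:71210595-71211609, 987 bases away. The OA peaks in the H3K27me3 region were at percentiles 77.4, 31.3 and 94.6 of their libraries. H3K4me3 was at 6.63, 9.39 and 8.19 in OA and at 7.91 and 9.21 in vehicle replicates 1 and 2. H3K27me3 was at 3.59, 3.33 and 4.69 in OA and 3.83, 3.84 and 3.69 in vehicle, a range that OA values spanned. UNC5C had its regions 533 bases apart and UNC5A 2724 bases apart.

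Counts by gene family are set against the share over all genes, 1.54% with both marks, 3.87% with H3K27me3 only, 63.7% with H3K4me3 only and 30.9% with neither. Of 32 axon guidance ligands and receptors, 3 had both marks (UNC5A, UNC5B and UNC5C), 2 H3K27me3 only and 21 H3K4me3 only. Of 22 ephrins and Eph receptors, EFNA3 and EFNB3 had both marks, 15 had H3K4me3 only and none had H3K27me3 only. Among 12 neurotrophins and receptors, NTRK2 and SORCS2 had H3K27me3 only and 5 H3K4me3 only. Of 85 voltage-gated channel genes, 7 (8.24%) had both marks, among them KCNH1, KCNS3, CACNB4, SCN9A, CACNB2 and SCN8A, 18 (21.2%) H3K27me3 only and 19 H3K4me3 only. Without OA H3K27me3 replicate 3 the channel counts were 5 and 14.

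FGF8 and FGF14 had them among 22 FGF genes, with 3 more under H3K27me3 only. BMP6 had them among 32 BMP, TGF-beta and GDF ligands. No WNT ligand of 19 had both, while WNT1, WNT2, WNT3A, WNT5B and WNT16 had H3K27me3 only and 10 had H3K4me3 only.

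Of 97 homeobox, PAX and LIM factors, 4 had both marks (EMX1, ISL1, MEIS3 and NKX6-1), 15 (15.5%) H3K27me3 only, among them PAX6, OTX2, DLX5 and LHX5, and 37 H3K4me3 only. In vehicle the same list had 33 genes with H3K27me3 only and 23 with H3K4me3 only. Over all genes H3K27me3 only was at 7.12% in vehicle and 3.87% in OA, and H3K4me3 only at 59.5% and 63.7%. An H3K27me3 peak was present in at least 1 OA library at 48 of the 97. FOXA3, FOXI3 and FOXL2 had both marks among 89 SOX, GATA, TBX and forkhead genes, and 6 had H3K27me3 only. ATOH1 had both among 19 neural basic helix-loop-helix factors. HOXB3 was the HOX gene with both marks among 39, while HOXA13, HOXB8, HOXD10 and HOXD13 had H3K27me3 only and 20 had H3K4me3 only. Of 476 zinc finger genes, 393 had H3K4me3 only while 2 had H3K27me3 only and 4 both marks (ZNF169, ZNF423, ZNF574 and ZNF684), a share of 0.840%.

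Among 31 PRC2 and PRC1 subunit genes, 27 had H3K4me3 only and 4 had both marks. Among them were CBX2, CBX7 and CBX8, chromobox readers of H3K27me3. At CBX2 H3K4me3 was at 7.69, 10.3 and 13.3 in OA and 12.1, 8.25 and 5.58 in vehicle, and H3K27me3 lay 1717 bases away. All 19 genes of the H3K4 methyltransferase complexes and of the H3K4 and H3K27 demethylases had H3K4me3 only.

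Against 63.7% of all genes, H3K4me3 only was found at 84 of 88 cytoplasmic ribosomal protein genes, 77 of 84 respiratory chain subunits, 36 of 39 proteasome subunits, 64 of 69 clustered histone genes and 21 of 23 serine, folate and methionine cycle enzymes. RPL38, NDUFB11 and PSMA1 had both marks. The regions were 1112 bases apart at RPL38 and 475 at NDUFB11, and those of PSMA1 lay at an alternative start far upstream. Of 13 tumor suppressors and cell cycle inhibitors 11 had H3K4me3 only, and of 10 EMT transcription factors and cadherins 8.

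Of 415 olfactory receptor genes 51 (12.3%) had H3K27me3 only, 2 H3K4me3 only, none both and 362 neither. Among 53 clustered protocadherins 12 had H3K4me3 only and 41 neither. Of 55 keratin genes 8 had H3K4me3 only, 5 H3K27me3 only and 42 neither, and of 56 epidermal differentiation complex genes 8, 2 and 46.

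**Figure D5:**
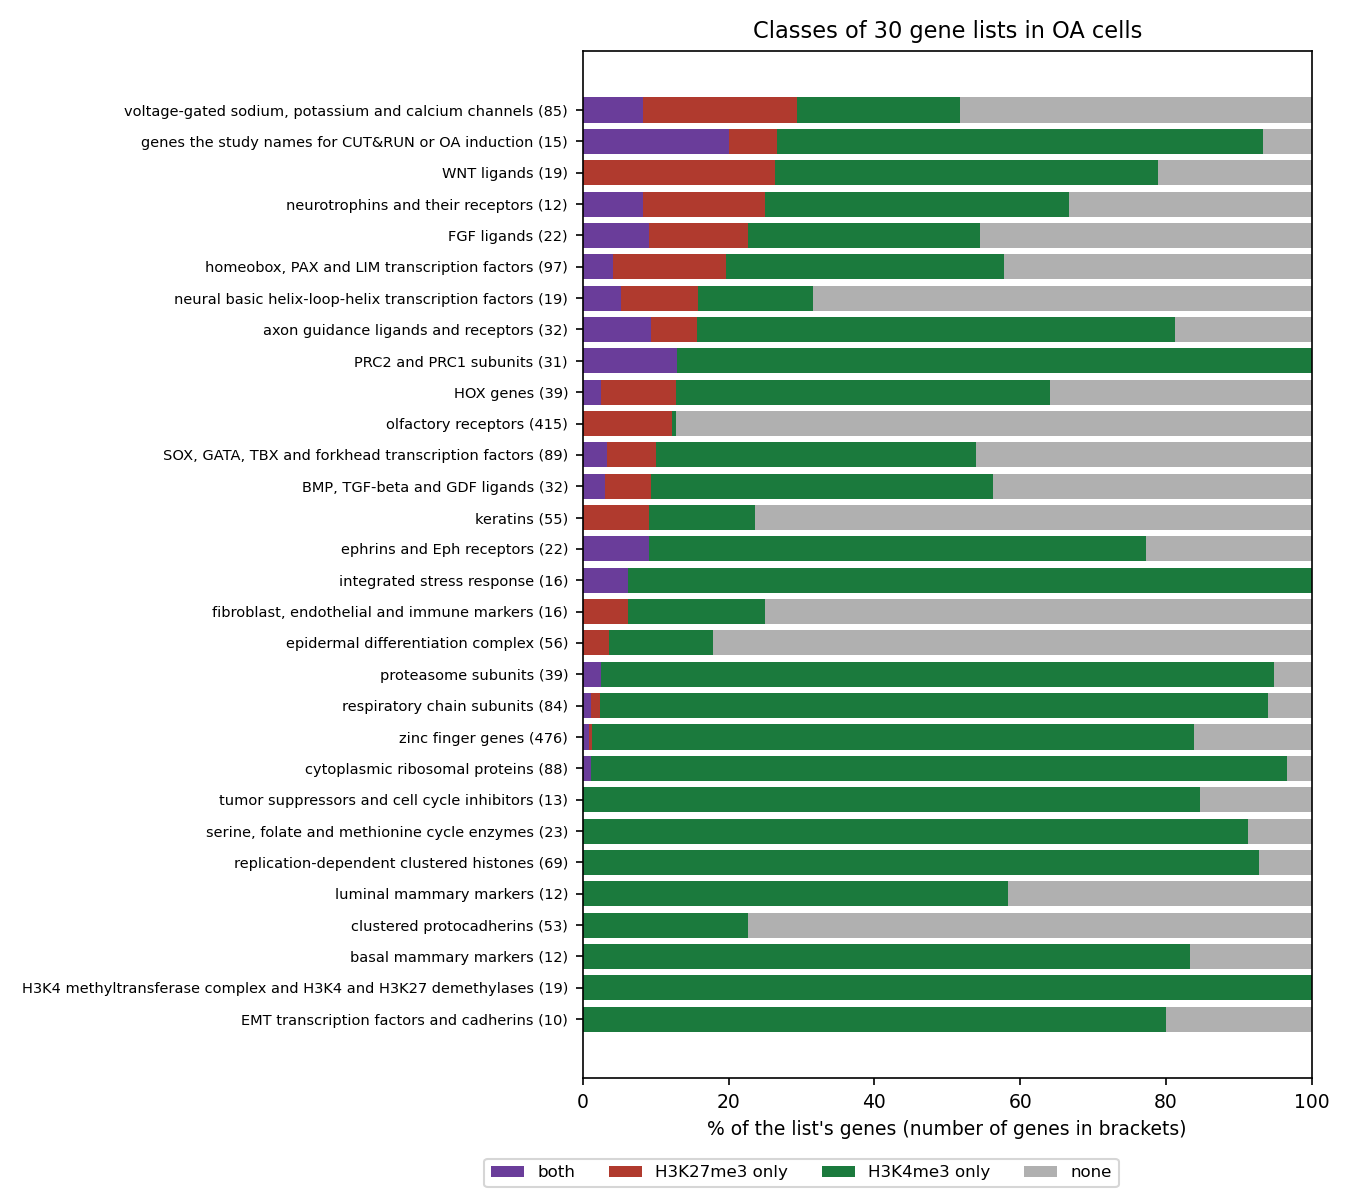
Share of the genes of each of 30 lists (x axis, percent; number of genes in brackets) in the classes both, H3K27me3 only, H3K4me3 only and none in OA cells, ordered by the share with H3K27me3. Channel genes stand at the top with 29.4% under H3K27me3, and 8 lists at the bottom had no gene under that mark.

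The study names 15 genes for CUT&RUN or OA induction. Some were named from these CUT&RUN samples and others from expression measured in MCF-10A cells exposed to OA. Their classes are therefore no independent evidence of a direction. In OA, 10 had H3K4me3 only, ATF3, PARM1 and PLAG1 both marks, LGR6 H3K27me3 only and NANOG neither. An H3K27me3 peak was present in at least 1 OA library at 10 of the 15. In vehicle, 4 had H3K4me3 only, 4 H3K27me3 only, 3 both and 4 neither. NGFR, the low-affinity neurotrophin receptor, passed from H3K27me3 only to H3K4me3 only. Its H3K4me3 region at chr17:49495117-49496936 held a peak at 6.27, 10.9 and 9.61 in OA and at 4.75 in vehicle replicate 1, with none in the other vehicle libraries. DLL4, a Notch ligand, changed class in the same way, with H3K4me3 at 4.79, 6.13 and 6.66 in OA and at 5.76 in vehicle replicate 1. This change of class does not mean that H3K27me3 peaks were absent in OA. Among all 141 genes that made it, 24 had no H3K27me3 peak in any OA library. A peak was found in 1 OA library at 82 of the 141, in 2 at 34 and in 3 at 1. PARM1 shared 1166 bases between its marks, with H3K4me3 at 6.56, 8.69 and 9.08 in OA and 5.68 and 3.94 in vehicle replicates 1 and 2. H3K27me3 at PARM1 was at 3.39 and 3.58 in the first 2 OA libraries and at 4.04 and 3.45 in the first 2 vehicle libraries. LGR6, an R-spondin receptor, had H3K27me3 peaks at 2.60, 2.96 and 3.42 in OA and 2.96, 2.87 and 2.84 in vehicle. It had an H3K4me3 peak in OA replicate 3 and vehicle replicate 3. The study reports H3K27me3 at LGR6 and PLAG1 as enriched in control cells by a differential binding analysis. The folds of called peaks given here are another measure and do not test that. Of 16 integrated stress response genes, 15 had H3K4me3 only in OA, among them ATF4, DDIT3, ASNS and TRIB3, and ATF3 had both.

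In the clearest cases of the loss of H3K27me3, it had a peak in 3 of 3 vehicle and 0 of 3 OA libraries while H3K4me3 stayed. This held for 10 of the 160 genes that passed from both marks in vehicle to H3K4me3 only in OA. The reverse held for 1 of the 46 genes that passed the other way, TXNDC5, which encodes a protein disulfide isomerase of the endoplasmic reticulum. The H3K27me3 libraries reached 2745, 1843 and 767 genes in OA and 1816, 2676 and 2086 in vehicle. The part of the low count of OA replicate 3 in the 10 against 1 was not tested. SLC36A1, a lysosomal amino acid transporter, had vehicle H3K27me3 folds of 4.74, 4.02 and 3.73 and HOXB2 of 3.65, 3.804 and 3.62. TFAP2B, an AP-2 transcription factor, had 2.91, 2.80 and 2.73. H3K4me3 at SLC36A1 was at 9.82, 13.4 and 12.9 in OA and 11.8, 13.7 and 10.2 in vehicle, so that the groups overlapped. These genes were taken by their H3K27me3 calls, and 3 against 0 is a description of that choice.

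In CpG content the genes with both marks were close to H3K4me3-only genes and above H3K27me3-only genes. The ratio of observed to expected CpG over 1000 bases around the canonical start had a median of 0.780 at genes with both marks and 0.788 at H3K4me3-only genes, against 0.508 at H3K27me3-only genes and 0.301 at genes with neither. Promoters with a ratio of at least 0.6 and at least 50% GC made up 85.4%, 85.9%, 41.9% and 23.2% of these classes and 64.8% of all genes. Genes with both marks were longer, with a median of 64948 bases against 33989 for H3K4me3-only, 23268 for H3K27me3-only and 27471 for all genes. They had a median of 4 starts, as did H3K4me3-only genes, against 3 for all genes. A gene was classed by any of its starts, and 227 of the 308 genes had both marks near the same start. The part of gene length and of the spread of starts in the class was not tested. No test was made over genes, which are not replicates.

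Chromosome 1 held 58 of the 308 genes with both marks (18.8%), against 10.3% of all genes, and its long arm 40 (13.0%), against 4.91% of all genes. The long arm, taken beyond 125 Mb, also held 9.41% of H3K27me3-only and 4.32% of H3K4me3-only genes. It held 7.20% to 8.30% of the H3K27me3 peaks of the OA libraries, 5.28% to 5.84% of their H3K4me3 peaks and 6.64% and 5.75% of IgG peaks. In the vehicle libraries the long arm held 5.86% to 7.95% of the H3K27me3 peaks and 5.27% to 5.93% of the H3K4me3 peaks. Chromosome 8 followed with 18 of 702 genes (2.56%) and chromosome 4 with 18 of 757 (2.38%), while chromosome 1 as a whole was at 2.81%. Copy number was not measured in these files, and its part in these counts was not tested. Without chromosome 1 the class held 250 of the 308 genes in OA and 277 of the 306 in vehicle, so that fewer of the vehicle genes lay there.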

How the data were processed

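Peak lists of 16 CUT&RUN libraries of MCF-10A cells were used, each called on its own library on hg38. Per the labels and the study's methods, the authors called narrow H3K4me3 peaks with MACS2 2.2.7.1 and broad H3K27me3 peaks with SICER2, though the deposited H3K27me3 files have the layout of MACS2 broad peaks. The submitters' processing notes also name DiffBind 3.9 and ChIPseeker 1.8.6. The aligner, duplicate handling and control library are not given in the sources used here. The deposited fold enrichment is a ratio over background, and the deposited −log10 p-value and −log10 q-value are those of the caller. The weakest deposited narrow peak had a q-value of 0.00998 and the weakest broad peak 0.09998, so that both lists end at the caller's threshold.

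Peaks on chromosomes 1 to 22, X and Y were kept, and 0.399% to 17.3% of a library's peaks, most in IgG, lay on other contigs. Peaks of a group that shared at least 1 bp were merged, and regions with peaks of at least 2 libraries were kept. Genes were classed within 3 kb of the starts of protein-coding transcripts (GENCODE 44). Strength was the percentile of −log10 p within a library. Named genes were the 12 genes with overlapping regions and the highest lowest percentile over the 6 OA libraries, the 6 genes of each single-mark class chosen likewise, up to 4 genes with both marks of each list, genes the study names, and up to 6 genes per direction that lost H3K27me3 in 3 of 3 to 0 of 3 libraries. Other genes, such as the channels and marker genes listed, were named after their values were seen, and some genes that the rule names are not reported here. Members and lists were chosen with earlier results of these data known. Differences between OA and vehicle were tested by two-sided exact permutation, differences within libraries by two-sided exact sign flips, with Benjamini-Hochberg adjustment over the 8 tests. Python 3.11.15, numpy 2.4.6, pandas 2.3.3 and matplotlib 3.10.9 were used, and the steps were tested on simulated data. Alternatives were the libraries, distance, starts, q-value and number of peaks required, what counted as both, removal of IgG peaks, single libraries left out and the replicate number as a block.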

Additional observations from a re-analysis of the deposited data

How the results depend on the processing

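The direction of 5 of the 8 tested differences held under every alternative run. No alternative passed 0.05, which these numbers of libraries could not reach in any case. The classes depended on settings far more. With regions in all 3 libraries, both marks were found at 70 genes in OA and 93 in vehicle and H3K27me3 only at 250 in OA. Within 1 kb both marks were found at 162 and 172 genes, and within 10 kb at 773 and 845, with 1223 H3K27me3-only genes. With 1 canonical start per gene the counts were 203 and 172. At a q-value of at most 1e-05 both counts were 1, and H3K27me3 only was also 1. With equal numbers of peaks (16086 for H3K4me3 and 9091 for H3K27me3) both marks were found at 101 genes in OA and 87 in vehicle and H3K27me3 only at 298. Where regions had to share at least 1 bp the counts were 72 and 37, with 50% of the shorter 41 and 31, and, as a setting added after seeing the data, near the same start 194 in vehicle. Removing peaks over IgG peaks left 306 genes with both marks.

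Leaving out a single library of the same condition gave 101 to 281 genes with both marks in OA, 162 to 296 in vehicle and 290 to 842 with H3K27me3 only in OA. The difference in genes with H3K27me3 per library ran from -888 to 101 and that in the share of H3K4me3 genes with H3K27me3 from -0.70 to 2.50 percentage points. At a q-value of at most 1e-05 the latter was -0.0091 and the H3K27me3 width difference -111 bp, on almost no genes.

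Same-numbered OA and vehicle libraries did not deviate together (correlations 0.085, 0.117 and -0.181 for H3K4me3 and 0.002, 0.053 and 0.013 for H3K27me3), so the number was not used as a pairing. With the replicate block the differences were 999 genes (exact sign-flip p = 0.25), -408 genes (exact sign-flip p = 0.75) and 1.04 points (exact sign-flip p = 1). Peak files without read counts limit all of this: a peak missed at the threshold and an absent mark cannot be told apart.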
